A study of Mus musculus with 4 samples.

Results

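Bmp15 and Shroom4 are neighbouring genes near the left end of mouse chromosome X, and the region around them holds the 250 kb bin of this chromosome with the lowest knockout minus wild-type difference in compartment score on the cas copy, in Sirt7 knockout and wild-type fibroblasts. It comprises the 2 bins of 250 kb that hold the midpoints of the genes (6250001 to 6500000 for Bmp15 and 6500001 to 6750000 for Shroom4, mm10), of 588 bins with data, and the 6 bins of 100 kb from 6.2 to 6.8 Mb, of 1461. The flanks, from 5 to 6.2 Mb and from 6.8 to 8.5 Mb, held 9 and 16 measured bins at 100 kb. At 250 kb they held 4 and 6 bins by their starts, and the bin from 6.75 Mb, that of Dgkk, was in neither. Because the region was chosen for its KO minus WT difference on cas, every cas value below is a description, and the mus copy is the measurement that the choice did not use.

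Compartments are the large-scale pattern in which gene-rich, active stretches of a chromosome (A) contact each other and gene-poor, repressed stretches (B) contact each other. On an inactive X chromosome this pattern is known to be weakened. Bmp15 encodes an oocyte growth factor of the TGF-beta family, and Shroom4 encodes an actin-binding protein of the Shroom family that has been linked to the shape and cytoskeleton of cells.

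The samples were tail tip fibroblasts (TTF) from female mice, hybrids of mus and cas, with 2 WT and 2 Sirt7-/- (KO). They were assayed by Hi-C, in which DNA segments near each other in the fixed nucleus are ligated and sequenced as pairs. SIRT7 is a nuclear deacylase of the sirtuin family. The text on the design of the series speaks of Xist binding, but sample titles and file headers name Hi-C. The authors combined the replicates of each genotype and split reads by allele, so each genotype has 1 matrix for each copy and bin size, 8 in all. The labels do not say which copy was inactive, whether the replicates came from separate animals, or which part of Sirt7 was deleted, and the Sirt7 gene was not analysed here because the matrices cover chromosome X. Hi-C measures no expression, so the cell type was not checked against markers. With 1 combined matrix per genotype and allele there is no spread between replicates, and no difference between WT and KO was tested.

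Each value is a correlation, r, that tells how alike 2 bins are in their contacts. For the compartment score, the mean r of a bin with 118 B bins was subtracted from that with 118 A bins, over pairs at least 2 Mb apart. A positive score therefore means a profile like that of A bins, and a negative score one like that of B bins. Differences are also given in SD of the KO minus WT differences of all bins, counted from their median. On cas the median was 0.0230 and the SD 0.0762 at 250 kb, and on mus they were 0.00158 and 0.0218. Depth is not given in the sources used here. The rows of the 2 bins at 250 kb had SDs between the 16.5 and 38.9 percentile of all bins over the 4 matrices. At this bin size the region thus lay below the median bin in contrast in both genotypes and on both copies. At 100 kb its bins lay between the 5.82 percentile (cas, WT) and the 58.8 percentile (mus, KO).

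Bmp15 (Gene ID 12155) lies on the minus strand at 6314054 to 6320724, wholly within the first bin. Shroom4 (Gene ID 208431) lies on the plus strand at 6399949 to 6637454, and 42.1% of it lies in the Bmp15 bin and 57.9% in the next. The 2 bins adjoin and share this gene, so they are not separate observations. Their promoters are shown because both genes lie in bins whose cas scores were lower together. They are from RefSeq on GRCm38.p6, the assembly of mm10, from windows of the 250 bases before a start, and are written 5′ to 3′ on the strand of the gene with each CG dinucleotide in capitals. The sequence of Bmp15 covers chrX:6320725-6320974 on the minus strand. That of Shroom4 covers chrX:6399782-6399948 on the plus strand, the 167 bases of the window of the first of its 3 listed starts that lie outside the annotated gene, and they hold 6 CG.
Bmp15: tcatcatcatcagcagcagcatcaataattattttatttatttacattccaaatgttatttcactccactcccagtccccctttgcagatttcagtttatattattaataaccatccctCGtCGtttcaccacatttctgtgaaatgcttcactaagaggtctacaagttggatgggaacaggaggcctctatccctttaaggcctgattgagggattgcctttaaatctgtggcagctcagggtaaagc
Shroom4: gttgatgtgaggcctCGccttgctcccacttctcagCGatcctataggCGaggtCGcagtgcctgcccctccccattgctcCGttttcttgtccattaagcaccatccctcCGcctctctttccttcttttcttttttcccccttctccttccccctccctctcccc
The Bmp15 window held 2 CG dinucleotides, and 945 of 1223 promoter windows of chromosome X (77.3%) held as many or more. The full window of the first Shroom4 start, to 6400031, held 10, and 377 (30.8%) held as many or more. The windows of its other starts held 3 and 4, and 846 (69.2%) and 735 (60.1%) held as many or more. The median window held 5, and 89% held at least 1. The motif CG reads the same on both strands. AAGCTT, the site cut by HindIII in the Hi-C protocol, was in none of the windows of these genes and in 88 of all 1223 (7.2%).

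On the cas copy, both bins had a score above 0 in WT and below 0 in KO. The WT score of the Shroom4 bin was small beside the SD of WT scores over all bins, 0.272. The score of the Bmp15 bin was 0.230 in WT and -0.168 in KO, a difference of -0.398 or -5.53 SD, rank 1 from the lowest of 588 bins. The score of the Shroom4 bin was 0.0690 in WT and -0.204 in KO, a difference of -0.273 or -3.88 SD, rank 3. Rank 2 was a bin at 135.75 Mb that holds Gprasp1 and Gprasp2, with -0.312, and rank 4 a bin at 72.5 Mb that holds Gabra3, with -0.216. Both bins of the region were at least 2 SD below the median, as were 18 of 588 bins on cas (3.06%). Both also crossed from above 0 to below 0, as did 25 bins (4.25%). The region was picked on these values, so nothing is read from these counts.

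The difference came from both terms of the score. On cas the Bmp15 bin had a mean r with A bins of 0.106 in WT and -0.0446 in KO. With B bins it had -0.124 and 0.124. Of its 114 A partners at least 2 Mb away, 110 had a lower r in KO, and all 117 of its B partners had a higher one. The mean r of the Shroom4 bin with A bins was 0.0490 in WT and -0.0690 in KO, with 112 of 114 partners lower. With B bins it was -0.0200 and 0.135, with 117 of 117 higher. The SD of the KO minus WT difference over partners was between 0.0479 and 0.0768 for these 4 sets. It describes partners that share the same row, and not spread between cultures. The mean differences with A bins lay at the 0.17 (Bmp15) and 0.34 (Shroom4) percentile of all bins. Those with B bins lay at the 100 and 99.7 percentile. Shares of partners were not computed for other bins, so nothing is read from the partner counts.

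**Figure D1:**
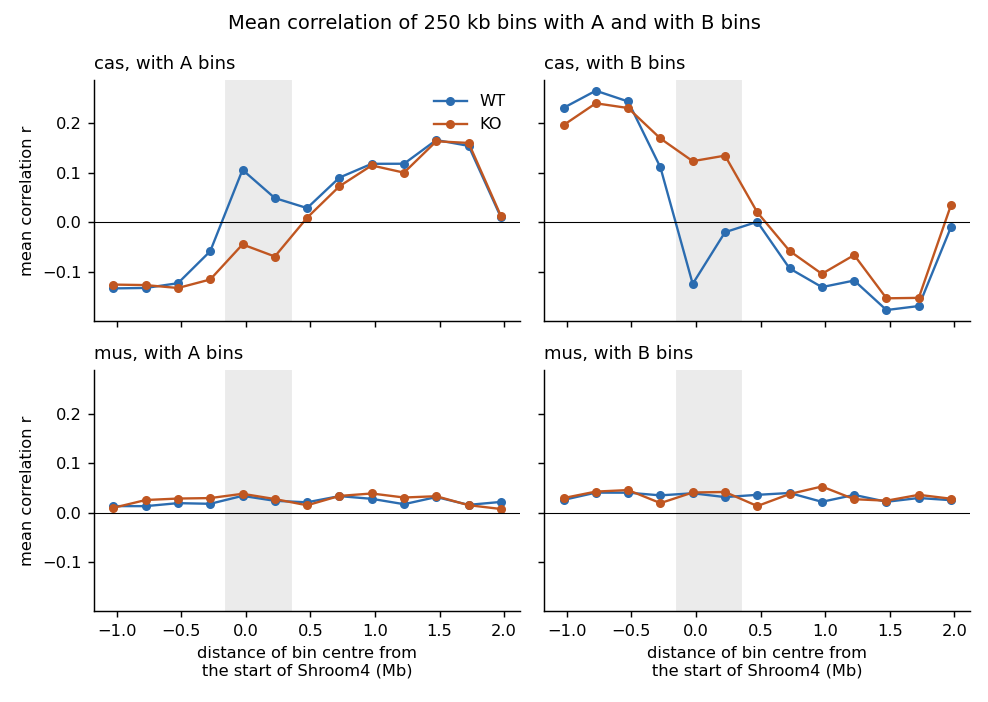
Mean r of each measured 250 kb bin from 5.25 to 8.5 Mb with A bins (left) and B bins (right), on cas (top) and mus (bottom), against the distance of the bin's centre from the start of Shroom4; the shaded band marks the Bmp15 and Shroom4 bins. On cas the WT and KO lines part at these bins, with means for the Bmp15 bin of 0.106 and -0.0446 with A bins, and lie close together over most of the flanks.

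The 6 bins of 100 kb resolved the shift. Scores at this bin size are smaller, with an SD over all bins of 0.0719 in WT on cas against 0.272 at 250 kb, so sizes are compared in SD of the differences, which was 0.0229. The bin from 6.2 Mb, to the left of Bmp15, had a cas score of 0.0225 in WT and -0.0491 in KO (-3.30 SD). The bin from 6.3 Mb, which holds Bmp15, had 0.0376 and -0.0223 (-2.80 SD). The bin from 6.4 Mb, with the first part of Shroom4, had the highest WT score of the 6, 0.0758, against -0.0223 in KO (-4.46 SD).
The bin from 6.5 Mb, inside Shroom4, showed the largest difference of the 6, from 0.0509 to -0.0635 (-5.18 SD). The bin from 6.6 Mb, with the end of Shroom4, had 0.0153 and -0.0477 (-2.93 SD). The bin from 6.7 Mb, beyond the gene, was negative in both genotypes, -0.0219 and -0.0378 (-0.880 SD). Thus 5 of the 6 bins were at least 2 SD below the median, among 36 of 1461 bins on cas (2.46%). The same 5 crossed from above 0 to below 0, among 50 (3.42%). Their differences ranked 4, 8, 3, 2 and 5 from the lowest of 1461, in order along the chromosome, and rank 1 was a bin outside the region with -0.121. These bins are the stretch that was picked, so nothing is read from these counts and ranks.

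At 100 kb the shift ended differently on its left and right sides. An edge was placed where the KO minus WT difference came within 1 SD of the median, a limit passed by 208 of 1461 bins on cas (14.2%) at 100 kb and 100 of 588 (17%) at 250 kb. The unbroken run around the region extended from 6 to 6.7 Mb at 100 kb and from 6 to 6.75 Mb at 250 kb. On the left it faded over 2 bins, which hold the nucleotide hydrolase genes Nudt11 and Nudt10 and the Polycomb inhibitor gene Ezhip. The bin from 6.1 Mb, that of Nudt10, had -0.0383 in WT and -0.0794 in KO (-1.97 SD), and the bin from 6 Mb, that of Nudt11 and Ezhip, had -0.0675 and -0.0875 (-1.06 SD). Both were already negative in WT. At 2 SD the run began at 6.2 Mb, between Nudt10 and Bmp15.
On the right the drop to the next bin was abrupt, from -2.93 SD at 6.6 Mb to -0.880 SD at 6.7 Mb and -0.219 SD at 6.8 Mb. The bin from 6.8 Mb, which holds the midpoint of the diacylglycerol kinase gene Dgkk, had almost equal scores, -0.0186 in WT and -0.0194 in KO. Single bins further right were again lower in KO, with -1.81 SD at 6.9 Mb and -2.02 SD at 7.1 Mb. With a running mean of 3 bins the right edge lay at 6.9 Mb. The abrupt drop holds for 100 kb bins only. At 250 kb the bins from 6.75 to 7.75 Mb lay at -0.808, -0.996, -0.699 and -1.21 SD. Those left of the run, from 5.25 to 6 Mb, lay at 0.255, 0.107 and -0.256 SD.

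**Figure D2:**
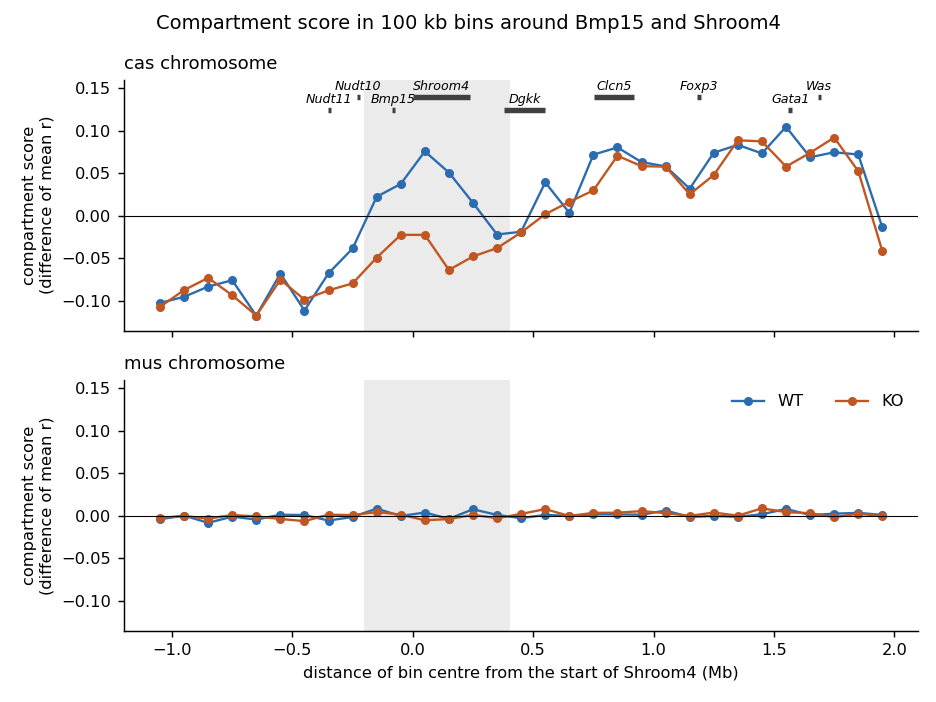
Compartment score of each measured 100 kb bin from 5.3 to 8.4 Mb in WT and KO on cas (top) and mus (bottom), against the distance of the bin's centre from the start of Shroom4; bars show selected genes and the shaded band the 6 bins from 6.2 to 6.8 Mb. On cas the WT score is above 0 in 5 of these bins and the KO score is below 0 in all 6, whereas on mus both lines stay near 0.

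In WT the region formed a small positive island on cas at 100 kb. Scores along the chromosome turned positive at 6.2 Mb, negative at 6.7 Mb, and were above 0 again from 6.9 to 8.3 Mb. In KO the first positive bin was that from 6.9 Mb. From the left, where genes are few, the stretch of scores below 0 ended at 6.2 Mb in WT and 6.9 Mb in KO. These are changes of sign only. The bins from 6.7 and 6.8 Mb were below 0 in WT too, and the KO score at 6.9 Mb was 0.00197. KO scores in the region lay between -0.0635 and -0.0223, nearer to 0 than those of the left flank, -0.117 to -0.0729. Whether the B-like stretch itself spread was not tested. At 250 kb there was no such island: all WT bins from 6.25 Mb to the end of the window were above 0, that of Dgkk included. The change of sign at this bin size lay at 6.25 Mb in WT and at 7 Mb in KO. The step between adjacent bins at 6.25 Mb was 0.400 in WT, the largest upward step of the window, and the largest upward step in KO was 0.193, at 6.75 Mb. At 100 kb the largest upward steps lay elsewhere, at 7.1 Mb in WT (0.0683) and at 5.8 Mb in KO (0.0421).
Among 127 runs on cas at 100 kb, 3 held at least 7 bins, this run included. The other two had 8 bins each, from 72.2 to 73 Mb, with the GABA receptor genes Gabra3, Gabre and Gabrq, and from 69.1 to 69.9 Mb, with Aff2. At 250 kb 9 of 61 runs had at least 3 bins.

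Correlations with the immediate neighbourhood on cas are not separate from the contrast that chose the region. At 100 kb the left flank included the bins from 6 and 6.1 Mb, which lay within the shifted run on cas. The mean r of the region with its left flank on cas was 0.00275 in WT and 0.0575 in KO. With the right flank it was 0.0291 and 0.00767. Within the region the mean r of bin pairs was 0.0131 and 0.0396. The flanks themselves stayed apart, with a mean r between left and right of -0.0201 in WT and -0.00712 in KO. The difference of 0.0547 with the left flank was the highest among 1390 positions on the chromosome where a stretch of this shape could be measured, whose median was -0.00261 and SD 0.0111. The difference with the right flank was -0.0214, and 48 of 1361 positions were lower (-1.88 SD). These ranks belong to the contrast that chose the region and support nothing.
By single bins, the left flank exceeded the right on cas in 2 of 6 bins in WT and in 6 of 6 in KO. The bin from 6.5 Mb had a mean r of -0.0206 with the left flank and 0.0441 with the right in WT, and 0.0829 and -0.00286 in KO. The bin from 6.7 Mb leaned to the left in both genotypes, with 0.0452 against 0.0147 in WT and 0.0683 against 0.0194 in KO. The bin from 6.2 Mb also leaned left in both genotypes, by 0.00164 in WT and 0.0578 in KO. The other 4 bins leaned right in WT and left in KO. On mus the left flank also exceeded the right, except at 6.2 Mb in WT (-0.00619) and at 6.7 Mb in KO (-0.000901). A lean to the left was thus not particular to KO on cas. These pairs include all distances, and no such count was made at other positions.

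**Figure D3:**
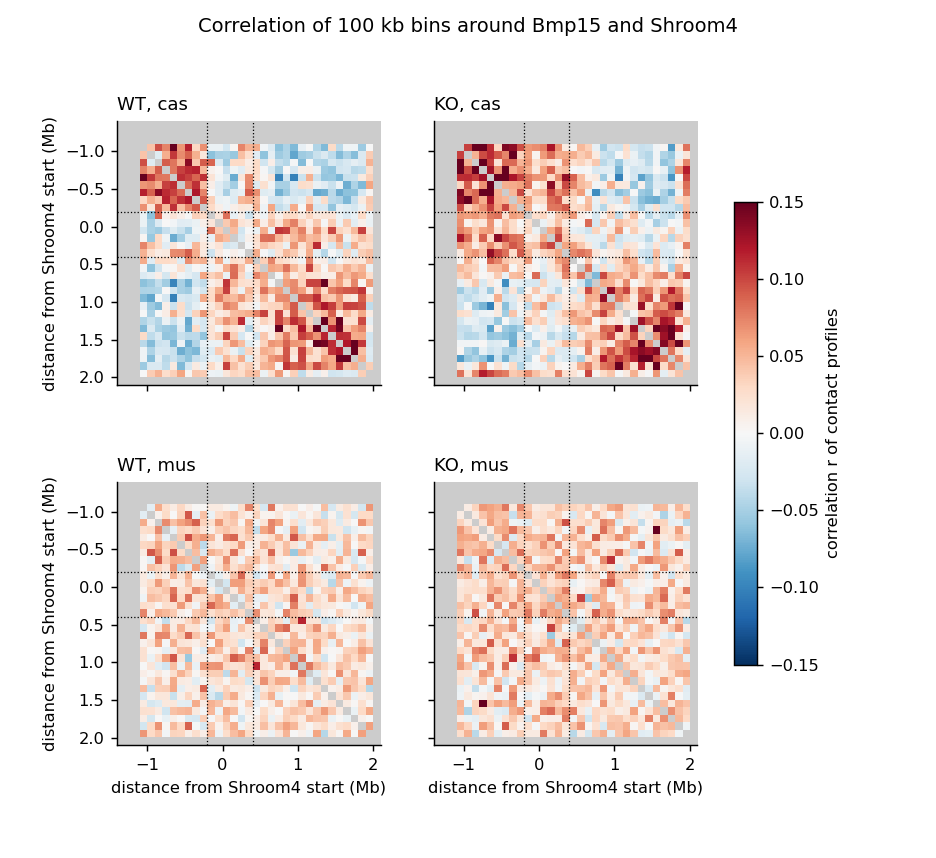
Correlation r of each pair of 100 kb bins from 5 to 8.5 Mb, as distance from the start of Shroom4 on both axes, for WT and KO (columns) on cas and mus (rows); dotted lines bound the region, grey cells are the diagonal and bins without data, and values beyond 0.15 take the end colours. On cas the region has a mean r with the left flank of 0.00275 in WT and 0.0575 in KO, and on mus no block pattern separates the flanks.

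Profiles far from the region restate on cas the contrast that chose it. Because the profiles of the flanks were opposed there, a region whose score changes sign also changes the flank it resembles. The mean profile of r values of the 2 bins at 250 kb was correlated with that of each flank. This used 567 bins lying at least 2 Mb outside the window, and the results are correlations of correlations. On cas, r was -0.740 with the left flank and 0.905 with the right in WT, and 0.893 and -0.650 in KO, so the flank that the region resembled was exchanged. The flanks' own profiles correlated at -0.888 in WT and -0.842 in KO. With 100 kb bins the values were -0.571 and 0.702 in WT, and 0.807 and -0.604 in KO. These bins share libraries and neighbours, so the correlations describe the matrices only.
At 250 kb the rows of the region in WT and KO correlated negatively on cas. Over bins at least 2 Mb away on cas, r between the WT and KO rows was -0.570 for the Bmp15 bin and -0.233 for the Shroom4 bin, where 1 and 5 of the 588 bins were lower. The median bin had 0.848. Among the 11 other bins of the window, that of Dgkk included, the lowest was 0.281, in the bin of Dgkk, and the highest 0.916. At 100 kb the opposition was weaker. The bins from 6.2 to 6.6 Mb had -0.131, -0.133, -0.181, -0.368 and -0.0430 in order. That from 6.7 Mb had 0.221, and the median bin at this size had 0.494.

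Along the chromosome, mean r of the 2 bins with consecutive blocks of 10 Mb was compared on cas. The blocks hold the A and B bins of the score, so their cas differences restate it. The 3 blocks with the highest KO minus WT difference were 80 to 90 Mb, from -0.0536 to 0.127, 60 to 70 Mb, from -0.0542 to 0.113, and 110 to 120 Mb, from -0.0904 to 0.0764. They held 33, 21 and 15 B bins and no A bin. The 3 with the lowest difference were 140 to 150 Mb, from 0.0106 to -0.0332, 160 to 170 Mb, from 0.00113 to -0.0293, and 150 to 160 Mb, from -0.0220 to -0.0473. They held 12, 15 and 11 A bins and no B bin. On mus the differences in the first 3 blocks were 0.00614, 0.00745 and 0.00201, and in the last 3 -0.00502, -0.0268 and -0.0309. On cas the last 3 had -0.0438, -0.0304 and -0.0253. At 160 to 170 Mb and 150 to 160 Mb the differences on mus were thus similar in size to those on cas. The lowest block difference on mus was -0.0544, at 0 to 10 Mb, where cas had 0.0171.

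**Figure D4:**
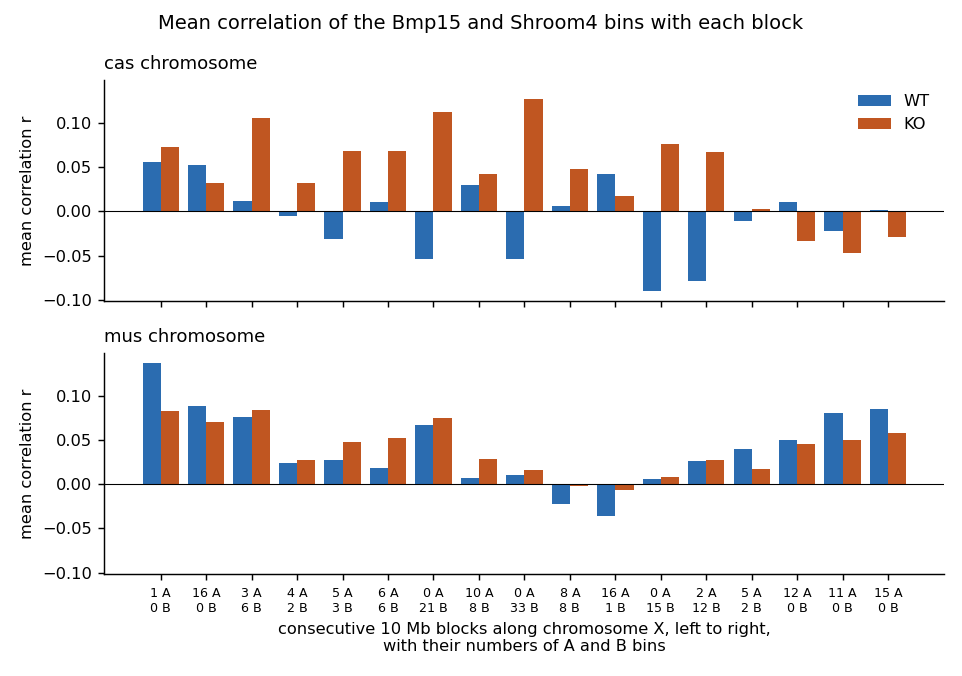
Mean r of the Bmp15 and Shroom4 bins with consecutive 10 Mb blocks of chromosome X in WT and KO, on cas (top) and mus (bottom), for 250 kb bins at least 2 Mb away; labels give the number of A and B bins in each block. On cas the bars of blocks with many B bins change from below 0 in WT to above 0 in KO, such as -0.0536 to 0.127 in the block with 33 B bins.

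On the mus copy the compartment scores of the same bins showed no comparable difference. The Bmp15 bin scored -0.00521 in WT and -0.00263 in KO. The Shroom4 bin scored -0.00755 and -0.0143. The differences of 0.00258 (0.0458 SD) and -0.00671 (-0.380 SD) ranked 309 and 216 of 588 bins. Neither bin was 2 SD below the median on mus, as 22 of 588 bins were (3.74%), and neither crossed 0 from above, as 105 did (17.9%). Scores on mus are small over the whole chromosome, with a median size in WT of 0.0162 against 0.279 on cas. They rest on A and B classes taken from the cas matrices, and mus differences over all bins spanned only -0.0611 to 0.0535. No bin on mus thus differed by as much as the region did on cas, and its absence here decides little. The cas and mus differences are therefore each set against the SD of their own copy, and the difference between the copies was not tested.
The terms of the score on mus were alike too. The Bmp15 bin had a mean r with A bins of 0.0339 in WT and 0.0380 in KO. With B bins it had 0.0391 and 0.0406. Of its A partners 52 of 114 were lower in KO, and of its B partners 58 of 117 were higher. For the Shroom4 bin the values were 0.0238 and 0.0274 with A bins, and 0.0314 and 0.0417 with B bins, where 68 of 117 were higher.
At 100 kb, 0 of the 6 bins were 2 SD below the median on mus, as 23 of 1461 were (1.57%). The lowest of the 6 was the bin from 6.4 Mb, from 0.00400 to -0.00516 (-1.48 SD), and that from 6.6 Mb had -1.06 SD. These 2 bins do not adjoin, and at 1 SD, a limit passed by 216 of 1461 bins (14.8%), the run around the lowest held 1 bin. The bins from 6.4 and 6.7 Mb crossed from above 0 to below 0, 2 of the 6, as did 240 of 1461 (16.4%).

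On mus the region resembled both flanks, and the flanks each other. The mean profile of the 2 bins had r of 0.779 with the left flank and 0.787 with the right in WT, and 0.647 and 0.720 in KO, and the flanks correlated at 0.780 and 0.756. The WT and KO rows on mus correlated at 0.458 for the Bmp15 bin and 0.423 for the Shroom4 bin, against a median of 0.492 over all bins. At 100 kb the mean r of the region with the left flank was 0.0309 in WT against 0.0355 in KO. With the right flank it was 0.0235 against 0.0290. These differences were 0.00460 and 0.00551. Among positions of the same shape on mus, 1257 of 1390 were lower on the left and 1280 of 1361 on the right, and the differences lay 1.18 and 1.4 SD above their medians. At 250 kb both were lower in KO, 0.159 and 0.0986 on the left and 0.142 and 0.108 on the right. There 26 of 557 positions were lower on the left (-1.69 SD) and 140 of 546 on the right (-0.616 SD), so the direction on mus depended on the bin size.
The 2 bins had an r with each other of 0.0488 in WT and 0.201 in KO on cas, and of 0.224 and 0.121 on mus.

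Among the other bins of the window on cas, those of Dgkk and of Slc38a5 with several Ssxb genes crossed 0, and the rest kept their side. The latter, at 8.25 Mb, had 0.0194 in WT and -0.0224 in KO. The bin of Nudt11, Ezhip and Nudt10 (6000001 to 6250000) had -0.169 in WT and -0.285 in KO (-1.81 SD). Next on the left, 3 bins from 5.25 to 6 Mb, with Mycs, a Myc-related gene, in the first, had WT scores between -0.398 and -0.365 and differences between 0.00349 and 0.0425. The bin of Dgkk (6750001 to 7000000) had 0.0277 and -0.0109, which differed by -0.0385 (-0.808 SD). The bin shared by the meiotic cyclin gene Ccnb3, the sperm tail anchor gene Akap4 and the chloride transporter gene Clcn5 had 0.183 and 0.131. The bin of Usp27x, a ubiquitin protease gene, had 0.249 and 0.219.
Promoters of the neighbours were richer in CG than those of the members in several cases. The windows of Nudt11 and Nudt10 held 48 and 46 CG dinucleotides, and 2 and 3 of the 1223 windows on chromosome X, these included, held as many or more. Those of Dgkk and Usp27x held 22 and 24, whereas both Akap4 windows held 0.

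The gene-dense right flank from 7.5 to 8.25 Mb was lower in KO on cas by less than the region in each of its 3 bins, all of class A. The lists fixed for it share these bins, so their counts are of bins. The immune and blood genes Foxp3, Gata1, Was and Pim2 lay in 3 bins, all lower in KO, as were 230 of 588 bins (39.1%), with 0 past 2 SD. Their median was -0.0263, against a median of 0.0230 over all bins. This share and this median include bins of class B and of neither class. Scores on cas spread less in KO, with an SD over all bins of 0.238 against 0.272 in WT. No share was computed for A bins alone, so nothing is read from these counts. The chromatin and RNA genes, among them the histone methyltransferase gene Suv39h1 and the deacetylase gene Hdac6, lay in 2 bins with a median of -0.0184. The synapse genes, among them Syp and Cacna1f, lay in 2 bins with a median of -0.0478, and the membrane and metabolism genes, among them Plp2, Ebp and Porcn, in 3 with -0.0263. The bin of Foxp3, Syp, Cacna1f and Plp2 had 0.236 in WT and 0.166 in KO (-1.21 SD), and that of Gata1, Hdac6 and Pim2 had 0.343 and 0.317.
Directions within these lists were mixed at 100 kb: the bin of Gata1 and Hdac6 had -0.0468 (-2.23 SD), that of Pim2 had 0.0142 and that of Was and Suv39h1 0.00518.
On mus at 250 kb the medians of these 4 lists were -0.000471, -0.00377, 0.0108 and -0.000471, against 0.00158 over all bins.

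Related genes on the chromosome were listed for comparison. Of the 4 germ line genes listed, Bmp15, Ccnb3, Akap4 and Mycs, which lie in 3 bins of 250 kb, 2 bins were lower in KO on cas, against 39.1% of all bins, and 1, that of Bmp15, was past 2 SD. At 100 kb the bin of Ccnb3 and Akap4 had a difference of 0.0128 and that of Mycs 0.00792, so that the bin of Bmp15, chosen for its difference, was the lower one of the 3, against 604 of 1461 bins lower in KO (41.3%). The median was -0.0529 on cas and 0.00249 on mus. Shroom2, the other Shroom gene of chromosome X (152609509 to 152770788), had a cas score of -0.0370 in WT and 0.0851 in KO, a difference of 0.122 opposite to the -0.273 of Shroom4. On mus their differences were 0.00625 and -0.00671.

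Likeness to the region was measured as the Euclidean distance between the 4 scores of a bin (WT and KO, cas and mus), each divided by its SD over all bins, and the mean of the Bmp15 and Shroom4 bins. The nearest gene-holding bin outside the window was that of Gprasp1, Gprasp2, Bhlhb9 and Arxes2 (135750001 to 136000000), at a distance of 0.575. Its score was 0.148 in WT and -0.163 in KO on cas, and -0.00144 and 0.000930 on mus. The next 4 were the bin of H2al1n at 14 Mb (0.783), that of Ssx9 and Ssxb5 at 8.75 Mb (0.929), that of Grpr at 163.5 Mb (0.994) and that of Cypt3, Kctd12b and Nbdy at 153.5 Mb (1.01). Their cas differences lay between -0.111 and -0.0590, so that none of these 4 came near the -0.336 mean of the region.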

How the data were processed

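Hi-C correlation matrices of chromosome X were used for 2 WT and 2 KO samples. Per the file headers, the authors combined the replicates, split reads by allele and wrote HOMER matrices. Each deposited value is a score, a correlation that compares the contacts of 2 bins. Per the submitters' processing notes, cutadapt, Bowtie2, HOMER, Juicer and mm10 were used. Tool versions, contact normalization, allele rule and depth were not given in the sources used here.

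Only bins with data in every matrix were kept, 588 of 683 at 250 kb and 1461 of 1707 at 100 kb. The WT and KO cas matrices were averaged, and bins were ordered by principal component 1. The outer 20% on the gene-rich side were class A and the outer 20% on the other side class B. The classes thus rest on the cas data they describe, and the 2 bins of the region were in neither. Genes were placed by midpoints from RefSeq. Computations used Python 3.11.15 and numpy, and were tested on simulated matrices. Named genes were Bmp15 and Shroom4, protein-coding genes from 6 to 7.5 Mb, listed genes to 8.5 Mb, Shroom2, the 5 most alike gene-holding bins and the 3 blocks highest and lowest in change. Members and lists were chosen with earlier results of these data known. No test was run, because each genotype and allele had 1 combined matrix. Alternatives were the bin size, minimum distance, scaling, class definition, weak bins, medians, edge limits and rank correlation.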

Additional observations from a re-analysis of the deposited data

Results flagged for a closer look

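For some values KO lay on one side of WT on cas and on the other side on mus. These differences between the copies were not tested, since replicates had been combined. The compartment score of the Bmp15 bin differed by -0.398 on cas and 0.00258 on mus, the latter only 0.0458 SD from the median of all bins. The mean correlation of the region with A bins differed by -0.134 on cas and 0.00388 on mus, and that with the right flank by -0.0214 on cas and 0.00551 on mus. Measured in SD of like positions on the same copy, the right flank values were of similar size, -1.88 on cas and 1.4 on mus. The sign of both mus correlations depended on the bin size: with the right flank the mus difference was -0.0333 at 250 kb, and with A bins it was -0.00281 at 100 kb. With A bins at 250 kb the mus difference was only 0.0837 SD from the median of all bins. Other values had the same sign on both copies. The score of the Shroom4 bin differed by -0.273 on cas and -0.00671 on mus, and the mean correlation with B bins by 0.201 and 0.00594.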

How the results depend on the processing

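The mean cas difference of the Bmp15 and Shroom4 bins, -0.336, stayed below 0 under all 13 alternatives and lay between -4.96 and -3.26 SD from the median of all bins. Values counted as moved where they shifted by 1 SD of all bins or more, or, for edges, by more than 1 bin. With 100 kb bins the cas difference was -0.0705, its A and B terms were -0.0287 and 0.0418 (-0.134 and 0.201 at 250 kb), and the WT to KO correlation of rows was -0.106 (-0.401 at 250 kb). In SD of all bins these were -3.26, -3.14, 3.09 and -2.66, against -4.71, -4.67, 4.47 and -4.89 at 250 kb, and the cause was not tested. The mus difference, -0.00206, was above 0 under 7 alternatives and below 0 under 6, within -0.588 to 0.122 SD. On mus the flank differences of 0.00460 and 0.00551 at 100 kb were -0.0606 on the left and -0.0333 on the right at 250 kb, and the cause was not tested. At 100 kb the left edge was 6.2 Mb with 2 SD and 6.2 Mb with the limit at 0.5 of the lowest difference, and the right edge was 6.9 Mb with a running mean of 3 bins. No paired analysis was possible because the replicates were combined before deposit, and leaving out a replicate was not possible for the same reason. Depth was not given, so its effect on these values could not be assessed.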
